A study of Homo sapiens with 4 samples.

Results

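The baseline promoter accessibility of unedited HEK293T cells was described from the 2 wild-type (WT) libraries of an ATAC-seq experiment, which sequences the DNA that a transposase can reach. HEK293T is a human embryonic kidney line that carries the SV40 large T antigen. It is aneuploid, so that copy number and accessibility cannot be told apart in the levels given here. The members are the 28738 nuclear promoter rows among the 28775 rows of the promoter count table, in 2 of the 4 libraries of the series. The other libraries are MORC2 knockouts and are not used here. The WT cells carry the intact MORC2 gene and, per the labels, received no treatment. WT replicates 1 and 2 held 6601963 and 6119609 nuclear fragment counts, and a nuclear row held a median of 141 and 131 fragments. Levels are given as CPM, the count divided by the nuclear count of the library and multiplied by 1000000. A count of 0 allows a level of up to 0.454 CPM in replicate 1 and 0.490 CPM in replicate 2, which covers counting error only.

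In ATAC-seq the Tn5 transposase cuts DNA that is not wrapped in nucleosomes or packed in heterochromatin, and inserts sequencing adapters there. Promoters of genes in use usually hold a nucleosome-depleted stretch at the start site, and most of them lie in CpG islands, where the CG dinucleotide has escaped the loss it suffered elsewhere in the genome. Genes restricted to other cell lineages often have CpG-poor promoters that stay wrapped in nucleosomes. Accessibility is not transcription: a promoter can be open while its gene is silent, for example at developmental genes under Polycomb control.

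To show how promoters of different levels look, the 200 bases before the start of 7 genes are printed 5′ to 3′ on the strand of the gene, from RefSeq on GRCh38.p14, with every CG in capitals. RBM15 (chr1:110339177-110339376, plus strand), an RNA-binding protein of the m6A writer complex, and PCDH9 (chr13:67230337-67230536, minus strand), a cell adhesion protein, belong to the 15 most accessible rows. RPS3A (chr4:151099428-151099627, plus strand) and HOXD11 (chr2:176107080-176107279, plus strand) lie near the median of the ribosomal protein genes and of the HOX genes. OR2J1 (chr6:29099290-29099489, plus strand), KRT38 (chr17:41440984-41441183, minus strand) and TAS2R7 (chr12:10802628-10802827, minus strand) lie near the median of the olfactory receptors, the keratins and the bitter taste receptors.
RBM15: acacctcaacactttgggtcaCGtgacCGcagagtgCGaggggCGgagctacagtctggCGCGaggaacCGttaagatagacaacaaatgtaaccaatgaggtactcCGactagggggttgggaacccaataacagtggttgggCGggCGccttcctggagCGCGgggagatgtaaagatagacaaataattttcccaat
PCDH9: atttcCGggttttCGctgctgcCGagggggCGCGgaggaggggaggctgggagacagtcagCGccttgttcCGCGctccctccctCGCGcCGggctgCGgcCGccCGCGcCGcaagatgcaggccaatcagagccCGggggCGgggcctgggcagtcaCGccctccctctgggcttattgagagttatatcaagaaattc
RPS3A: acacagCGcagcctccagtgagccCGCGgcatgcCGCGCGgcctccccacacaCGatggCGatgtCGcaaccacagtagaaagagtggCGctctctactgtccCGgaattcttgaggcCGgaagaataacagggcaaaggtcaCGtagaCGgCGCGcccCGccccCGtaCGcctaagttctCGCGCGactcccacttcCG
HOXD11: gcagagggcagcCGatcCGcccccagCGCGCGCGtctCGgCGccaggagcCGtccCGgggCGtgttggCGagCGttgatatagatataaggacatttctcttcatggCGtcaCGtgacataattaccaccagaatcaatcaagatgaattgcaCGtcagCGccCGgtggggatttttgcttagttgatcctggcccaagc
OR2J1: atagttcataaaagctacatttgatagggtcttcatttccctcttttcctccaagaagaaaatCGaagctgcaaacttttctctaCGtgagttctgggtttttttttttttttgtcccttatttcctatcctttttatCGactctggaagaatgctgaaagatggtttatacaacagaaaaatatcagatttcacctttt
KRT38: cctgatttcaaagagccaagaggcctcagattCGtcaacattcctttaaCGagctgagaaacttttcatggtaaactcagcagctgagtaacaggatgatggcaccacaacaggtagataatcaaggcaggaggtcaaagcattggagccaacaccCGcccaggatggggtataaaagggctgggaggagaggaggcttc
TAS2R7: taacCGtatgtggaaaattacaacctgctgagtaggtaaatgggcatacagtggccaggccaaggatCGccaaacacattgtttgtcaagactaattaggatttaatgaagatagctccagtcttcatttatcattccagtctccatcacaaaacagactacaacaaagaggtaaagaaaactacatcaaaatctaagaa

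The upstream stretches of RBM15, PCDH9, RPS3A and HOXD11 held 12, 19, 23 and 18 CG dinucleotides, whereas those of OR2J1, KRT38 and TAS2R7 held 3, 3 and 2. RBM15 stood at 262 and 269 CPM in WT replicates 1 and 2, and TAS2R7 at 2.42 and 2.94 CPM. The counts were made on another assembly, CHM13, so these sequences identify the promoters and are not the windows counted. The exact window behind the count table is not given in the sources used here, beyond the 2 kb around a gene start that the study describes for promoters. A gene has 1 row, so an active start far from the counted one is not seen.

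Promoter levels fell into 2 broad populations in both libraries. If every nuclear row held the same count, each would stand at 34.8 CPM, which is called the mean level. A promoter was called open where it reached the mean level in both libraries, closed where it lay under 6.96 CPM (0.2 of the mean level) in both, and between otherwise. By this rule 11296 promoters (39.3%) were open, 9154 (31.9%) were between and 8288 (28.8%) were closed. Open promoters held 81.3% (95% Wilson interval 81.2 to 81.3) of nuclear counts in replicate 1 and 81.2% (81.1 to 81.2) in replicate 2. Closed promoters held 2.80% (2.79 to 2.81) and 2.92% (2.90 to 2.93). These intervals reflect the number of fragments alone, which were not tagged as separate molecules before PCR. Rows with overlapping windows may also hold the same fragments, so the intervals are too narrow if they do. The rows were called from these same counts, so a high share for open and a low share for closed rows follow in part from the rule. The median promoter stood at 21.4 CPM in each library, and the upper quartile began at 55.6 and 56.2 CPM. A mixture of 2 Gaussian curves fitted to log2(CPM + 1) placed its means at 5.34 and 54.2 CPM in replicate 1 and at 5.46 and 55.2 CPM in replicate 2. In replicate 1 the curves crossed at 20.3 CPM. The cuts themselves fall in a continuum: the mean of the 2 libraries lay within 10% of the open cut for 1559 promoters and within 10% of the closed cut for 1429.

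**Figure D1:**
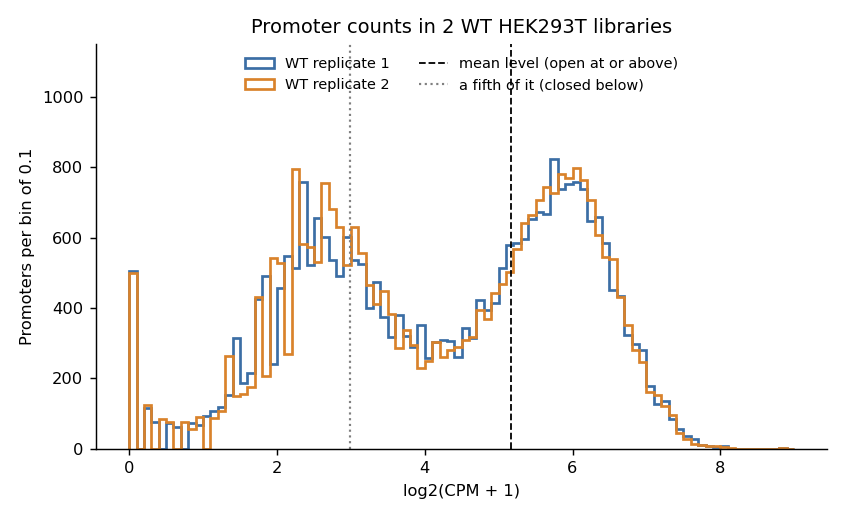
Histogram of promoter levels in WT replicate 1 (blue) and WT replicate 2 (orange), with log2(CPM + 1) on the x axis and the number of the 28738 promoters per bin on the y axis. The dashed line is the mean level of 34.8 CPM and the dotted line 6.96 CPM; both libraries show a low and a high hump with the trough between these lines.

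The gene type of a row went with its level. Of 19307 protein-coding promoters, 49.8% were open and 17.8% closed, with a median of 35.7 and 36.6 CPM in replicates 1 and 2. Promoters of 5674 long noncoding RNAs (lncRNAs) were open in 23.1% and closed in 42.7%, with a median of 7.72 and 7.68 CPM. Rows of microRNAs (miRNAs), whose hairpins are mostly cut from longer host transcripts that start elsewhere, were open in 7.48% of 1886 and closed in 68.4%. Of 431 rows without a fragment in either library, 114 were chromosome Y rows, of which the table has 118. The rule counts all 431 as closed.

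The most accessible promoter in these cells was that of TLE4, a corepressor of the Groucho family. It held 446 and 448 CPM in replicates 1 and 2, 12.8 times the mean level and 1.64 times the next row. SETD5, a SET domain protein, stood at 271 and 273 CPM and its neighbour in gene order, THUMPD3-AS1, had a near-equal level. RUSC1-AS1, an antisense transcript of RUSC1, stood at 269 and 274 CPM. In this ranking, neighbouring rows in gene order whose counts lay within 25% in both libraries were counted once. Several of the 15 highest rows so counted had such a neighbour, as 56.7% of all open promoters did. Distances between starts were not used, and whether these pairs share fragments was not tested. They were RBM15 with RBM15-AS1, GADD45A (a growth arrest and DNA damage gene) with SERBP1, ZNF687-AS1 with ZNF687, ITSN1 with CRYZL1, JUN (the AP-1 transcription factor) with JUN-DT, TBC1D10B with MYL11, and FBXL19 with FBXL19-AS1. Single rows among the 15 were PCDH9, the transcription factor gene UBP1, MATN1-AS1, TEDC1 and GSK3B, a kinase of WNT and insulin signalling. PCDH9 stood at 263 and 251 CPM, UBP1 at 266 and 241 CPM and TEDC1 at 241 and 229 CPM. The last of the 15, FBXL19, stood at 224 and 229 CPM. After TLE4 the means of neighbours in rank were at most 7.77 CPM apart, while the 2 libraries differed by up to 24.8 CPM at 1 of these promoters, so the order of these 14 rows is not resolved. In all, 39 promoters exceeded 200 CPM in both libraries.

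Housekeeping genes, those every dividing cell needs, had mostly open promoters. Over 10 lists with 499 members, 386 (77.4%) were open and 28 (5.61%) closed, with medians of 54.8 and 57.8 CPM in replicates 1 and 2. Of all protein-coding promoters, the nearer comparison for these lists, 49.8% were open and 17.8% closed. Over all nuclear promoters the shares were 39.3% open and 28.8% closed. Of 79 cytosolic ribosomal protein genes, which encode the protein part of the translating ribosome, 70 were open and 0 closed. Their medians were 56.0 and 59.6 CPM. RPL7, the highest, stood at 128 and 135 CPM, and RPL17, the lowest, at 21.5 and 25.0 CPM. Although these genes are among the most strongly transcribed in any cell, their promoter levels lay near the centre of the open population, and none was among the 15 highest rows.

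Aminoacyl-tRNA synthetases, which charge tRNAs with amino acids, were open at 36 of 37 promoters. YARS1 was the highest with 164 and 165 CPM. AARS2, the mitochondrial alanyl-tRNA synthetase, was the 1 not open, at 28.2 and 27.9 CPM. Chaperonins and heat shock proteins, which fold other proteins, had the highest median of any list, 94.2 and 101 CPM, with 21 of 22 open. The chaperonin subunit TCP1 led them with 200 and 185 CPM and CCT8 stood in the middle with a mean of 96.2 CPM. HSPA1A, the inducible HSP70, was closed at 5.45 and 4.41 CPM. It has a near-identical copy, HSPA1B, and the authors discarded fragments that map poorly, so its level is uncertain.

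Nucleic acid machinery behaved alike. Core spliceosome genes were open at 34 of 37 promoters, with PRPF4 the highest (116 and 115 CPM) and SNRPB2 the lowest (24.1 and 20.1 CPM). Genes of DNA replication licensing and the replication fork were open at 35 of 41, from MCM7, a subunit of the replicative helicase, at 128 and 127 CPM to RPA3, a subunit of the single-strand binding protein, at a mean of 6.48 CPM. Mediator subunits and general transcription factors were open at 53 of 68, with TBP, the TATA-binding protein, highest at 138 and 140 CPM and the RNA polymerase II subunit gene POLR2J lowest at 10.1 and 12.1 CPM.

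Energy and protein turnover genes followed with a few exceptions. Nuclear-encoded subunits of oxidative phosphorylation were open at 59 of 74 promoters. NDUFA11 of complex I stood at 149 and 160 CPM, whereas NDUFA5, of the same complex, was closed at 3.48 and 3.10 CPM. Proteasome genes were open at 30 of 41, from PSMG1, an assembly chaperone, at 144 and 147 CPM to PSMA6, a core subunit, which was closed at 5.45 and 6.37 CPM. For NDUFA5 and PSMA6 the promoter table of RefSeq lists 3 and 2 starts, and which of them was counted is not known. Host genes of small nucleolar RNAs were open at 24 of 31, with SNHG31 the highest at 131 and 120 CPM. SNHG14 and SNHG27 were closed, the former at 0.606 and 1.63 CPM.

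The replication-dependent histones, which are made in S phase and have no introns or poly(A) tails, did not follow the other housekeeping lists. Of 69 histone genes 24 were open, 23 closed and 22 between. H2BC21 reached 188 and 196 CPM and H2AC7 stood in the middle with 25.0 and 26.1 CPM. Of H2A and H2B genes, 8 of 17 and 9 of 18 were open, against 2 of 13 H3 genes, 3 of 15 H4 genes and 2 of 6 H1 genes. H1-6, H2AC1 and H2BC1, which are variants of the testis, were closed, with means of the 2 libraries of at most 3.80 CPM. H4C14 and H4C15, which are identical copies, held 0 fragments in both libraries, and no level can be given for them.

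**Figure D2:**
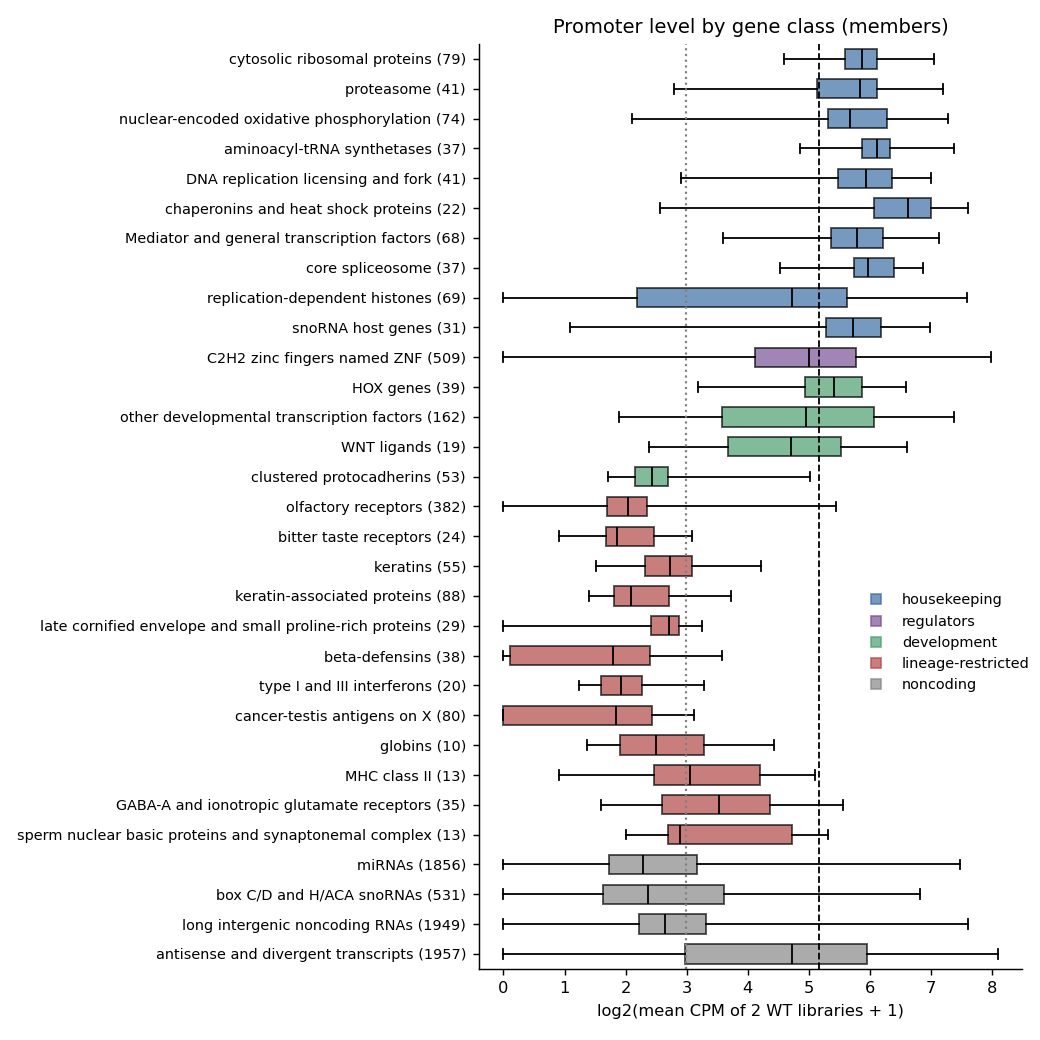
Promoter level of each gene list, as log2(mean CPM of the 2 WT libraries + 1), with the number of members in parentheses. Boxes span the quartiles with the median as a line, whiskers reach the lowest and highest member, colours mark the kind of list, and the dashed and dotted lines are the open and closed cuts; the housekeeping medians other than that of histones lie beyond the open cut, and 10 of 12 lineage-restricted medians lie below the closed cut.

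Zinc finger genes of the ZNF series, most of which encode DNA-binding repressors, spanned the whole range. Of 509 such promoters 224 (44.0%) were open and 81 (15.9%) closed, near the 49.8% and 17.8% of all protein-coding promoters, with medians of 30.0 and 31.9 CPM. ZNF687 was the highest (254 and 248 CPM), ZNF888 stood in the middle (31.2 and 30.7 CPM), and ZNF705B, which has close copies, held 0 fragments. The 246 members on chromosome 19, where KRAB zinc finger genes lie in large clusters, had a median of 22.1 CPM (mean of the 2 libraries), and 24.8% of them were open. The 263 members elsewhere had a median of 46.0 CPM, and 62.0% were open. The split by chromosome was made after values were seen and carries no test.

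Transcription factors of development were next. Of 39 HOX genes, which set position along the body axis, 21 (53.8%) were open and 0 closed. The open share was near the 49.8% of all protein-coding promoters, of which 17.8% were closed. The HOXA and HOXC clusters stood higher, with medians of 64.1 and 62.1 CPM and of 54.1 and 58.8 CPM in replicates 1 and 2, and 9 of 11 and 6 of 9 genes open. HOXB and HOXD stood lower, with medians of 29.9 and 33.3 CPM and of 22.3 and 23.9 CPM, and 2 of 10 and 4 of 9 genes open. Single genes spread widely: HOXC6 held 93.2 and 97.2 CPM, HOXD8 39.1 and 43.6 CPM, HOXD10 6.36 and 9.80 CPM, HOXA2 9.86 CPM and HOXB1 8.79 CPM (the last 2 as means of the libraries). HOXC4, HOXC5 and HOXC6 had identical counts and are 1 observation, though each enters the counts and medians above. With neighbours of identical counts taken once, as chosen after seeing the data, the HOX median fell from 41.4 to 37.7 CPM (means of the libraries).

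A list of 162 other developmental transcription factor symbols held 72 open (44.4%) and 15 closed (9.26%) promoters, with medians of 30.2 and 29.9 CPM, against 49.8% and 17.8% of all protein-coding promoters. FOXO3, a broadly used stress regulator, was the highest with 158 and 173 CPM. Other high members, picked after their values were seen, were POU3F2 (140 CPM), a neural regulator, TBX18 (139 CPM) and TBX3 (134 CPM), means of the 2 libraries. FOXD4, which has close copies, was the lowest at 1.67 and 3.76 CPM. The list was made by symbol pattern and also took in TBXAS1 and TBXA2R, which belong to thromboxane signalling and are no transcription factors. Of 19 WNT ligands 6 (31.6%) were open, against the same 49.8% of all protein-coding promoters. WNT5A led with 99.4 and 93.5 CPM, followed by WNT9A, WNT11, WNT7B, WNT6 and WNT7A, and WNT8B was lowest at 5.15 and 3.27 CPM.

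The clustered protocadherins, adhesion proteins of which a neuron picks a few by promoter choice, were a closed exception among developmental genes. Of 53 members 0 were open and 44 (83.0%) closed, against 49.8% and 17.8% of all protein-coding promoters. The medians of the members were 4.24 and 4.58 CPM. PCDHGC4, one of the C-type members, was the highest with 32.3 and 30.2 CPM, and PCDHA6 the lowest with 2.12 and 2.45 CPM.

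Lineage-restricted families had few open promoters, and in most of them the majority was closed. Over 12 lists with 787 members, 4 (0.508%) were open and 669 (85.0%) closed, against 49.8% and 17.8% of all protein-coding promoters. Of the 787, 34 held 0 fragments in both libraries, and the rule counts these as closed. The medians of the 787 members were 3.33 and 3.60 CPM. The median of the housekeeping members was 16.6 times that of these members, and 16.5 and 16.1 times in replicates 1 and 2 taken alone. The olfactory receptors weigh heavily in this pool: among the other 405 members 304 (75.1%) were closed. The closed share was lowest in 3 of the 12 lists, at 38.5% for MHC class II, 37.1% for GABA-A and ionotropic glutamate receptors and 38.5% for sperm nuclear basic proteins and the synaptonemal complex. Of 382 olfactory receptors 365 were closed and 1, OR1F1, was open at 39.2 and 45.9 CPM. The median receptor, OR52K2, stood at 2.12 and 4.08 CPM, or 14 and 25 fragments. Such low levels lie above the limit for a count of 0 but rest on few fragments, and the scatter between libraries is wide there.

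Epithelial and barrier genes were closed or lay between the cuts. Of 88 keratin-associated proteins, which build hair, 72 were closed and 0 open. Keratins, the filaments of epithelia, were closed at 31 of 55 promoters, with KRT80 the highest at 18.8 and 16.5 CPM. The proteins of the cornified envelope of skin were closed at 19 of 29, and beta-defensins, antimicrobial peptides, at 35 of 38. Of these, 2 cornified envelope genes and 8 beta-defensins held 0 fragments in both libraries, so no level can be given for them. None of these lists had an open member. Bitter taste receptors were closed at 23 of 24 promoters.

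Genes of blood, immunity and germ cells were also low. Type I and III interferons, the antiviral cytokines, were closed at 19 of 20 promoters, with IFNL1 the highest at 9.39 and 8.17 CPM. Globins were closed at 7 of 10. The highest was HBQ1 at 19.2 and 22.1 CPM, while the adult and fetal genes HBB and HBG1 stood at 3.39 and 1.57 CPM (means). MHC class II genes, which present antigens in immune cells, were intermediate, with 5 of 13 closed and HLA-DMB at 36.7 and 29.9 CPM. Cancer-testis antigens on chromosome X, which are silenced outside the germ line, were closed at 75 of 80 promoters, and 21 of these held 0 fragments in both libraries. Many belong to near-identical copies such as the CT45A genes, at which fragments with unsure positions were discarded, so a 0 there is no measure of closure. Meiotic and sperm genes were open only at SYCE3 among 13, at 38.6 and 39.1 CPM. Neuronal GABA-A and ionotropic glutamate receptors were the least closed of these lists, with 13 of 35 closed and GRIK4 (46.8 and 45.9 CPM) and GRIN3B (35.3 and 40.0 CPM) open.

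Marker genes of several cell types were compared with the label of the cells. Of 13 markers of the embryonic kidney 7 (53.8%) were open and 0 closed, an open share near the 49.8% of all protein-coding promoters. SIX2, the regulator of nephron progenitors, stood at a mean of 121 CPM, EMX2 at 99.7 and 97.4 CPM, SALL1 at 80.4 and 92.0 CPM and HOXA11 at 72.9 and 69.4 CPM. GATA3 and HOXD11 were open near the cut, and WT1 straddled it at 35.6 and 33.5 CPM. PAX2 (11.5 and 9.48 CPM) and PAX8 (7.57 and 6.54 CPM), further regulators of the kidney lineage, were not open, nor were LHX1, OSR1 and EYA1. Markers of the mature kidney were mostly low: UMOD and SLC12A1 were closed at 3.63 and 2.29 CPM (means), AQP2, NPHS1, SLC12A3 and SLC34A1 lay between 10.7 and 21.1 CPM, and LRP2, the endocytic receptor megalin, was open at 49.1 and 46.9 CPM.

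Neural and adrenal genes, for which HEK293 cells are known, were mixed. VIM, the intermediate filament vimentin, was open at 112 and 108 CPM and the neurofilament gene NEFL at 46.5 and 52.6 CPM. NEFH stood at 79 and 86 fragments, NEFM at 17.3 and 18.8 CPM, INA at 27.4 and 24.3 CPM and ENO2 at 31.7 and 28.9 CPM. NR5A1, the regulator of steroid-producing glands, stood at a mean of 16.7 CPM and its target CYP11A1 at 9.09 and 7.52 CPM.

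Markers of other lineages were open at 3 of 48 promoters, where 49.8% of all protein-coding promoters were open. The 3 were CD8A, the T cell coreceptor, at 67.4 and 60.8 CPM, CD68, a lysosomal glycoprotein used for macrophages, at 50.0 and 55.1 CPM, and the apolipoprotein gene APOA1 at 35.7 and 37.1 CPM. Defining genes of the lymphoid, hepatocyte and erythroid lists were low. PTPRC (CD45) stood at 2.57 and 2.45 CPM, ALB (albumin) at 2.42 and 3.60 CPM, and HBB at 3.18 and 3.60 CPM. Other lymphoid markers, CD3D, CD3E, CD3G, CD4, MS4A1, CD79A, CD79B and PAX5, ranged from 3.47 to 14.2 CPM. The myeloid markers SPI1, CD14, CSF1R, ITGAM, LYZ and MPO ranged from 5.88 to 12.2 CPM, and the hepatocyte markers APOB, TTR, FGB, HNF4A, CYP3A4 and SERPINA1 from 2.69 to 9.86 CPM. Muscle markers (ACTA1, MYH1, MYH2, CKM, MYOD1, MYOG, TNNT3 and DES) ranged from 2.28 to 23.5 CPM, the highest being the master regulator MYOD1. Erythroid markers other than HBB (HBA1, HBA2, GATA1, KLF1, ALAS2 and EPOR) ranged from 5.36 to 28.3 CPM. Of the fibroblast markers COL1A1 lay at the open cut with 34.1 and 35.3 CPM, and COL1A2, COL3A1, PDGFRA, THY1 and DCN ranged from 5.18 to 10.1 CPM.

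**Figure D3:**
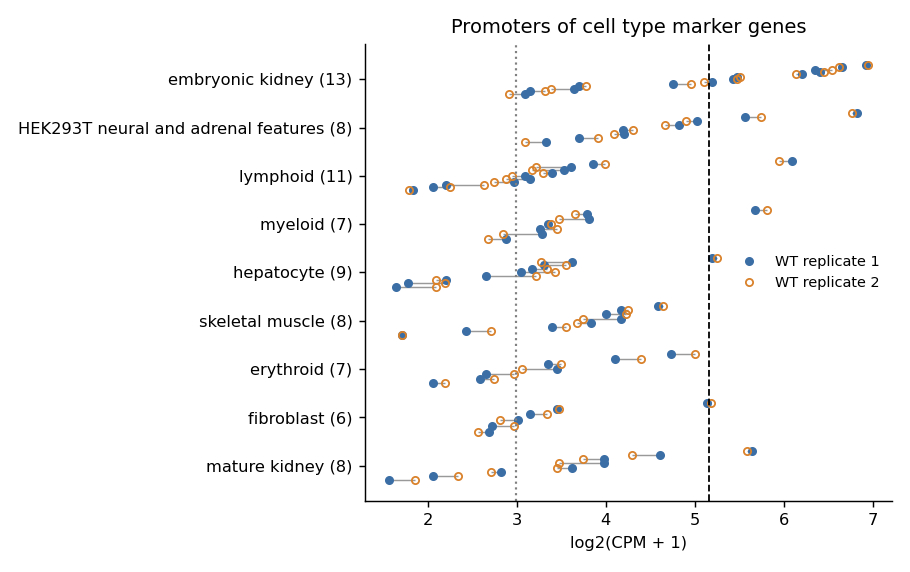
Levels of every marker gene in WT replicate 1 (filled blue) and WT replicate 2 (open orange), joined by a line, on the x axis as log2(CPM + 1), by marker list on the y axis with the number of genes in parentheses. The dashed and dotted lines are the open and closed cuts; 7 of the 13 embryonic kidney markers lie beyond the open cut, against 3 of 48 markers of the blood, liver, muscle and fibroblast lists.

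Noncoding transcripts fell into kinds that differed in how far they shared the level of a nearby gene. Of 390 divergent transcripts (suffix -DT), which start close to their host gene and run the other way, 278 (71.3%) were open, and 94.6% lay within 25% of the host's count in both libraries. Of 1545 antisense transcripts (suffix -AS) 35.7% were open, and 38.5% lay within 25% of their host. Their median was 14.3 CPM, against 39.7 CPM for the hosts. Counts carry no strand, so a pair that shares a window could not be told apart. Of the open antisense rows, 174 were not within 25% of their host, and 28 had a closed host, of 215 with one. Long intergenic noncoding RNAs were open at 127 of 1949, led by LINC02585 at 194 and 192 CPM, and 76 of the 127 (59.8%) lay within 25% of a neighbouring row. Open miRNA rows numbered 141 of 1856, led by MIR4258 at 178 and 174 CPM, and 98 of the 141 lay within 25% of a neighbouring row. Small nucleolar RNA rows were open at 63 of 531, led by SNORA44 at 114 and 111 CPM, and 50 of the 63 lay within 25% of a neighbour. For comparison, 56.7% of all open promoters had such a neighbour, and 39.3% of all nuclear promoters were open.

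Promoters with more CG dinucleotides were open more often. The ratio of CG dinucleotides observed to those expected from the bases alone was computed over 250 bases before to 50 after the start for the 15463 protein-coding promoters with a RefSeq sequence, of which 52.3% were open and 17.3% closed. A sequence was at hand for 84.1% of open, 75.3% of between and 77.7% of closed protein-coding rows. In the lowest quintile of this ratio, with a median of 0.17, 7.15% were open and 51.4% closed, and the median level was 6.21 CPM in each library. In the next quintile, with a median ratio of 0.52, 36.4% were open and 23.3% closed. The third, with a median of 0.77, held 66.3% open, the fourth 74.1% and the highest, with a median of 1.02, 77.3%, with 2.81% closed. The median level of the highest quintile was 55.9 and 57.2 CPM, so most of the rise lay between the lowest and the middle quintile. GC content gave a similar order with a weaker contrast, from 16.1% open in the lowest quintile to 70.1% in the highest. Across these promoters Spearman's rho with the level was 0.556 for the CG ratio and 0.445 for GC content. Both are given as descriptions, since promoters that share a library, fragments or base composition are not independent. Among genes with a single listed start at the 5′ end of the gene, the share of open promoters in the lowest quintile was smaller, 2.64%.

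**Figure D4:**
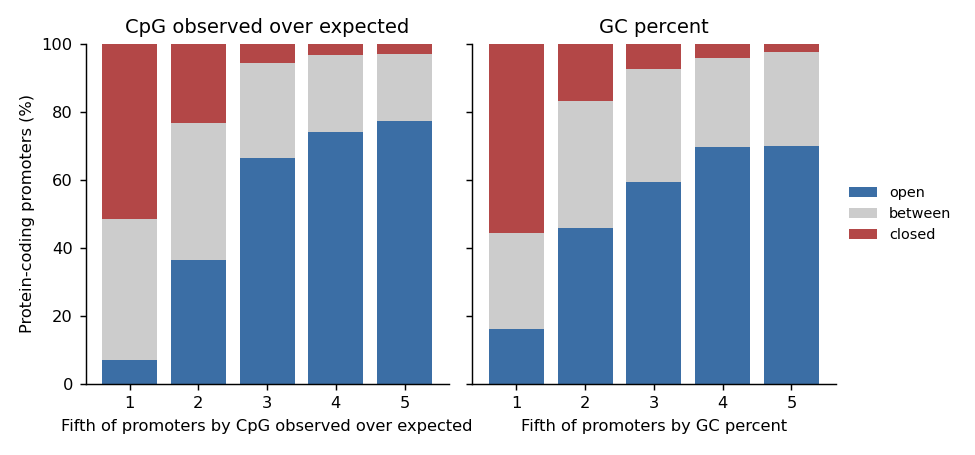
Share of open (blue), between (grey) and closed (red) promoters, in percent on the y axis, in quintiles of 15463 protein-coding promoters from low to high on the x axis by the observed over expected CG ratio (left) and by GC content (right). Open promoters rise from 7.15% to 77.3% with the CG ratio and from 16.1% to 70.1% with GC content.

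The lists differed in the same measure where at least 80% of their members had a sequence. The median CG ratio was 0.97 for replication genes, 0.93 for the spliceosome, 0.87 for aminoacyl-tRNA synthetases and 0.79 for the ZNF genes. It was 0.12 for olfactory receptors and bitter taste receptors and 0.18 for keratin-associated proteins. Histone genes had a CG ratio of 0.78, near the median of 0.77 in the middle quintile of protein-coding promoters, but a low GC content (43.2%). The protocadherins, closed though they were, had a ratio of 0.59. WNT ligands, open at only 6 of 19 promoters, had a ratio of 0.83 and 74.7% GC.

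Short motifs were searched on both strands of the same 300 bases, as exact letters. The GC box GGGCGG, the core of SP and KLF sites, was present in 59.1% of promoters, of which 66.8% were open, against 31.3% of promoters without it. The ETS core CCGGAAG was present in 14.4%, with 73.8% open against 48.6%. The YY1 motif AAGATGGCG was present in 2.75%, with 77.9% open against 51.5%, and the NRF1 motif GCGCATGCG in 2.82%, with 76.4% open against 51.6%. The CREB motif TGACGTCA was present in 2.62% (70.9% open against 51.8%), the E-box CACGTG in 8.83% (63.5% against 51.2%) and the ZNF143 motif ACTACAAT in 0.705% (75.2% against 52.1%). Several of these motifs contain CG themselves, so their count is tied to the CG ratio.

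The motifs that remain were less frequent in open promoters or showed little difference. The TATA box TATAAA was present in 9.71% of promoters, of which 25.1% were open and 43.6% closed, against 55.2% and 14.4% of the others. The GATA motif AGATAA was present in 7.56%, with 27.3% open against 54.3%, and the AP-1 motif TGAGTCA in 3.65%, with 30.7% open against 53.1%. The TEAD motif GGAATG was present in 11.7% (median level 29.9 against 39.9 CPM) and the CCAAT box, CCAAT, in 36.6% (55.9% open against 50.2%). Among the promoters in the lower 2 quintiles of the CG ratio, the 53 with the YY1 motif were open in 75.5%, against 21.3% without it. There the GC box gave 37.8% against 15.1% and the ETS core 44.6% against 20.5%. The CREB and NRF1 motifs gave 39.3% and 44.4% against 21.6% and 21.7%, on 61 and 27 promoters. The ZNF143 motif, on 24 promoters, gave 33.3% against 21.7%, the E-box 29.7% against 21.3% and the CCAAT box 24.6% against 20.0%. With the TEAD motif the share was near the 21.7% found without it. For the TATA box, the AP-1 motif and the GATA motif the shares were 10.0% against 24.2%, 14.1% against 22.3% and 13.4% against 23.1%. The open share was 7.15% in the lowest and 36.4% in the next quintile of the CG ratio, so these comparisons did not hold the ratio fixed. Whether a motif goes with openness beyond the CG ratio was not tested. A match is a description of the letters and says nothing of binding.

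By chromosome, 37.3% of 832 protein-coding promoters on chromosome X and 37.6% of 1392 on chromosome 19 were open, the lowest shares other than the 0 of 43 on Y, and 60.1% of 750 on chromosome 9, the highest. The median level of open promoters ranged from 53.0 CPM on chromosome 15 to 85.6 CPM on chromosome 21 (84.6 and 85.9 CPM in replicates 1 and 2). Gene content, copy number and accessibility cannot be told apart in these values. Of all 118 rows on Y, 114 held no fragment in either library. Whether these cells hold DNA of Y was not tested, so the closed calls there cannot be read as closed chromatin.

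The 2 WT libraries agreed closely. Pearson's r of log2(CPM + 1) across the 28738 promoters was 0.991 and Spearman's rho of the CPM 0.990, as descriptions without a p. The median absolute log2 ratio between the libraries was 0.12, and 96.7% of promoters lay within 1.5-fold. The share within 1.5-fold was 97.5% of the between promoters and 91.4% of the closed ones, whose counts are low. For open promoters it was 100%, in part because the rule asks for the mean level in both libraries. The same call was given by each library alone at 93.1% of promoters, and 0 promoters were open in one library and closed in the other. Of promoters open in replicate 1, 97.5% were open in replicate 2, and of those open in replicate 2, 96.5% were open in replicate 1. The groups of promoters that changed call lay at the cuts: 704 were open in 1 library only and 1269 closed in 1 library only.

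Most of the scatter was of the size that counting gives. In 10 classes of equal size by abundance, the median absolute log2 ratio fell from 0.40 in the lowest to 0.07 in the highest, and was 1.08 to 1.29 times the value expected from counting error alone. The biological coefficient of variation that edgeR estimated over the 2 libraries was 3.46%. The labels number these libraries as replicates, and the study describes 2 biological replicates, so the spread covers these 2 libraries only.

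In a two-sided exact binomial test of each promoter's counts, 2 of 28307 promoters with a fragment were called at an adjusted p under 0.05 (Benjamini-Hochberg), 0.00707% of those tested. This test compares 2 libraries of unedited cells, not conditions. It treats fragments as independent and covers counting error only, with no spread between libraries, so its p-values are too small where libraries vary more. ARAP1-AS2, an antisense transcript, was higher in replicate 1, with 124 against 55 fragments (18.8 and 8.99 CPM, adjusted p = 0.0407 by the exact test). ZNF207, which encodes a spindle assembly protein, was higher in replicate 2, with 196 against 287 fragments (29.7 and 46.9 CPM, adjusted p = 0.0181 by the exact test). Neither differed by more than 2.09-fold. Without adjustment 2332 promoters (8.24%) had a p under 0.05.

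**Figure D5:**
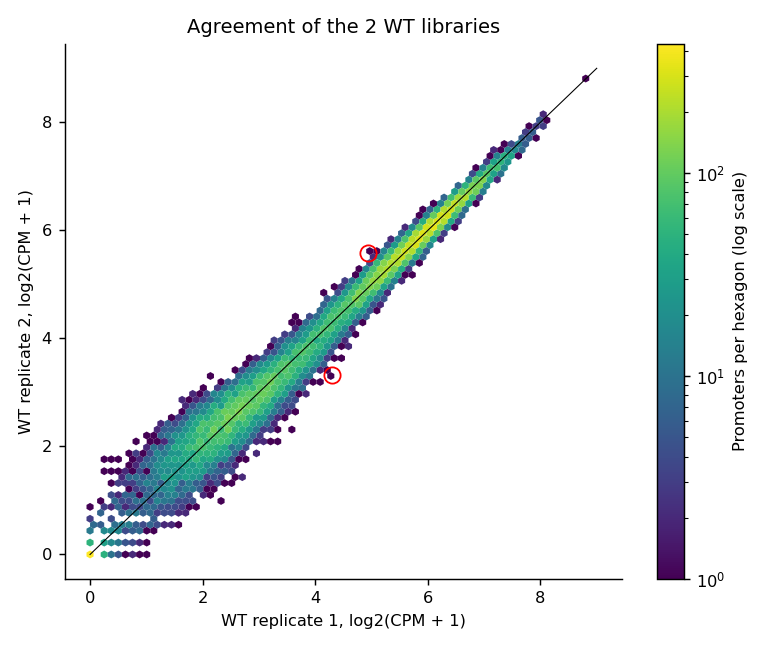
Level of each promoter in WT replicate 1 (x axis) against WT replicate 2 (y axis), as log2(CPM + 1), with colour for the number of promoters per hexagon on a log scale, the diagonal as a line and red circles around the 2 promoters called between the libraries. The cloud narrows with level, from a median absolute log2 ratio of 0.40 in the lowest abundance class to 0.07 in the highest.

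A small shift between the libraries followed the chromosomes. The median log2 ratio of replicate 1 to replicate 2 over protein-coding promoters was -0.11 on chromosome 19 and -0.07 on chromosome 17, and 0.04 on chromosomes 4 and 13. On chromosome 19 the open promoters had medians of 55.7 CPM in replicate 1 and 62.4 CPM in replicate 2. By GC content the same ratio stayed between -0.03 and 0.01 in every quintile. These shifts are smaller than the 16.6-fold gap between the housekeeping and lineage-restricted medians, but not than every gap between single lists. Ribosomal protein and proteasome genes, for example, had medians of 57.6 and 56.0 CPM over the means of the libraries. The shifts carry no test.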

How the data were processed

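ATAC-seq fragments were counted per promoter in 2 WT and 2 MORC2 knockout HEK293T libraries, of which the WT libraries are used here. The authors ran Trim Galore on the read pairs, mapped these to CHM13 by bowtie2, kept proper pairs with a mapping quality of at least 30, removed duplicates with Picard, and deposited raw counts with 1 row per NCBI Gene ID. The labels name featureCounts (Subread 2.0.6), but how this table was counted is not given in the sources used here. Reads that fit several copies of a gene are lost by the quality filter. The peak list, on CHM13, was not used.

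Symbols, gene types and gene order came from RefSeq on GRCh38.p14 for 28763 of 28775 rows. CPM were computed over nuclear rows, since mitochondrial rows took over 34% of counts. The 2 libraries were compared by a two-sided exact binomial test with Benjamini-Hochberg adjustment (scipy 1.17.1). The test was tried on simulated counts that held counting error alone, so this trial says nothing of extra spread between libraries. TMM factors and the dispersion came from edgeR 4.0.16 (R 4.3.3). Gene lists were defined by symbol patterns and hold every symbol that matched. A list of tRNA genes matched 0 rows. The genes named include the 15 highest rows, with near-equal neighbours in gene order counted once. They also include the highest, median and lowest member of most lists, the markers, and the promoters that differed between the libraries. Members chosen after their values were seen were added. A few genes of these lists are not reported here by name. The lists and members were chosen with earlier results of these data known.

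Promoter sequences were found for 68.0% of rows (51.3% of closed ones, 81.0% of open ones), under the 80% set as a minimum, so the planned comparison of sequence between open and closed promoters is void. Instead, chosen after seeing this, the 80.1% of protein-coding rows with a sequence were grouped by sequence. The 7 sequences shown were picked by rule: the 2 highest of the 15 rows that qualified, and the qualifying member nearest the median of 5 lists, with 1 listed start and upstream 200 bases that overlap no other gene.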

Additional observations from a re-analysis of the deposited data

Results flagged for a closer look

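The 37 mitochondrial rows, which enter none of the levels above, held 34.5% of all counts in WT replicate 1 and 35.1% in WT replicate 2. They are named here as a signal outside the nuclear promoters, with no control to set it against.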

How the results depend on the processing

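Scaling by TMM or by the median of ratios left 11278 promoters open and 8288 closed, and 11586 to 11710 were open and 8852 to 8993 closed in 1 library alone. The counts follow the cuts: 4458 were open at 2 times the mean level, 3207 closed under 0.1 of it, and 13941 closed with 1 cut at 20.3 CPM, where the mixture crosses. With mitochondrial counts in the total 7333 were open. Of protein-coding rows 3432 were closed. Counting rows with equal counts once left 1135 closed, since low rows coincide by count. Restricted to neighbours, as chosen after seeing the data, it left 11169 open and 8222 closed. The fold of housekeeping over lineage-restricted medians was 15.6 with equal counts once and 15.8 over rows with at least 10 fragments, and 16.1 to 16.5 without 1 replicate. Pearson's r was 0.988 and 0.994 with pseudocounts of 0.1 and 5, 0.990 over rows with at least 10 fragments and 0.987 with equal counts once. The exact binomial test called 0 promoters at an adjusted p under 0.01, where 2332 had an unadjusted p under 0.05, and 4 with equal counts once. The open share in the lowest CG quintile was 1.68% with open at 2 times and closed at 0.1 of the mean level, 7.79% over the bases before the start only, 7.60% to 7.63% without 1 replicate, and, chosen after seeing the data, 5.06% over all gene types and 2.64% over genes with 1 start. In the highest it was 30.7% with the stricter cuts and 78.3% to 80.1% without 1 replicate. The fold was 13.98 with the olfactory receptors left out, as chosen after seeing the data. Of the 31 list medians none moved with TMM. All fell to 0.651 to 0.653 of their value with mitochondrial counts in the total, while 28 moved with equal counts once, 11 of them by over 1.5 times (protocadherins to 15.4, globins to 17.4 and small nucleolar RNAs to 16.5 CPM). With at least 10 fragments cancer-testis antigens rose to 4.36 and beta-defensins to 3.83 CPM. In all, 11 and 5 medians moved beyond the spread of the libraries without replicate 1 and replicate 2. That spread was taken from the same 2 single-library values it was set against, so these counts do not measure robustness. TLE4 stayed between 446 and 448 CPM. The libraries cannot be compared without 1 of them. No paired analysis was possible because the results come from 1 group, with no contrast that a replicate number could pair. Below 10 fragments a level is set largely by counting error.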

Other observations

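Genes of small RNAs made by RNA polymerase III or like it, chosen by name after the lists above were made, were open at 10 of 14 promoters, against 39.3% of all nuclear promoters, with no test. RMRP, the RNA of RNase MRP, stood at 113 CPM in each library, RPPH1, the RNA of RNase P, at 102 and 105 CPM, and RN7SK, which holds back transcription elongation, at 93.2 and 89.5 CPM. RN7SL1 and RN7SL2, the RNA of the signal recognition particle, stood at 58.9 and 60.5 CPM and at 66.3 and 63.9 CPM. TERC, the telomerase RNA, which polymerase II makes, stood at 54.5 and 47.9 CPM. Of the vault RNAs, VTRNA1-1 was open at 55.7 and 53.4 CPM, and VTRNA2-1 was not, at 5.30 and 7.52 CPM. Of the Y RNAs, RNY1 and RNY3 were open, RNY5 stood at 28.5 and 32.2 CPM and RNY4 at 15.0 and 19.3 CPM. VTRNA1-3 straddled the open cut at 34.5 and 35.8 CPM.

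The promoters of MORC2 and of 6 genes of HUSH-linked silencing, also chosen after values were seen, were open with 1 exception. Of all protein-coding promoters 49.8% were open. MORC2 stood at 37.4 and 43.6 CPM, near the open cut, TASOR at 43.2 and 43.6 CPM, SETDB1 at 66.5 and 60.1 CPM and TRIM28 at a mean of 71.6 CPM. MPHOSPH8 and PPHLN1 were open at 46.0 and 48.5 CPM (means). ATF7IP lay under the cut at 26.7 and 24.2 CPM.

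Some promoters broke the relation of CG ratio and level. Of protein-coding genes with 1 listed start and at least 10 fragments, 41 in the highest quintile were closed and 56 in the lowest were open. Closed ones with the highest ratio included TFDP3 (5.60 and 4.25 CPM), a retrogene related to E2F partners, and ZPBP2, a sperm protein (4.85 and 6.05 CPM). Open ones included KLF9, a transcription factor (mean 119 CPM), MAP3K2, a kinase (mean 86.0 CPM), and BCL9, a coactivator of WNT signalling (87.2 and 92.8 CPM). Whether a start other than the listed one was counted was not tested.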
